A study of Drosophila melanogaster with 2 samples.

Results

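Heat shock protein genes encode chaperones, and 10 of them, of 13945 annotated protein-coding genes of Drosophila melanogaster, were examined for recovery with the protein CG18476. The 10 genes were taken by name and not by a threshold on any value, but the list was drawn up with earlier results of these data known. They are the small heat shock protein genes Hsp22, Hsp23, Hsp26, Hsp27, Hsp67Ba and Hsp67Bc, the Hsp90 gene Hsp83, the heat-inducible Hsp70 family gene Hsp68, and the cognate genes Hsc70-4 and Hsc70-5. ChIP-seq, the sequencing of DNA recovered with an antibody from sheared chromatin, used an antibody against GFP on whole embryos of mixed sex, 0 to 24 h old. All embryos carried an insertion that expresses CG18476 with eGFP at its carboxyl end, and there were 2 biological replicates of 1 group. The labels name no heat shock, no other treatment and no promoter that drives the transgene. Neither an untagged strain nor a mock precipitation was analysed here, and signal of whole embryos does not show which cells it came from. With 1 group there is no contrast between conditions, so the values below are descriptions.

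Small heat shock proteins hold unfolding proteins in a state from which they can be refolded, and Hsp70 and Hsp90 chaperones refold client proteins at the cost of ATP. Heat shock factor, the product of Hsf, binds inverted repeats of a short unit, the heat shock element, upstream of the inducible genes and raises their transcription in heated cells. The cognates are expressed without heat, and several small heat shock genes are also expressed without heat during fly development, partly under the hormone ecdysone. GAGA factor, which binds GAGAG repeats, keeps several of these promoters open before heat shock.

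The authors' thresholded set for the pooled reads, in genome build dm6, held 3995 peaks. Of these, 9 had their summit in the body of a heat shock gene or within 2 kb of it, and 9 of the 10 genes had at least 1 such summit. Over all protein-coding genes the share was 31.3%, and over genes of the same range of length, 884 to 4091 bp, it was 27.8%. The exception was Hsp68. A promoter peak, with its summit within 500 bp of an annotated transcription start site (TSS), was present at 6 of the 10 genes: Hsp22, Hsp26, Hsp27, Hsp83, Hsc70-4 and Hsc70-5. Over all protein-coding genes 17.7% had a promoter peak (2468 genes, exact binomial 95% interval 17.1 to 18.3). That interval treats genes as independent, although neighbours can share a summit, and does not measure the spread between replicates. The 10 genes are not independent, since 6 of them lie side by side at cytological position 67B and neighbours there share summits.

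The upstream sequences of 4 genes of the list are shown because they set promoters with a peak beside promoters that carry heat shock elements and no peak. They come from the RefSeq assembly of build dm6, run 5′ to 3′ in the direction of transcription and cover the 250 bases before the TSS. Capitals mark paired heat shock element units, GAANNTTC or TTCNNGAA. Hsp27 (chr3L:9383813-9384062, plus strand) and Hsp26 (chr3L:9377428-9377677, minus strand) held a thresholded summit, 158 and 179 bp upstream of the TSS. Hsp68 (chr3R:24057311-24057560, minus strand) and Hsp23 (chr3L:9381632-9381881, plus strand) held none.
Hsp27: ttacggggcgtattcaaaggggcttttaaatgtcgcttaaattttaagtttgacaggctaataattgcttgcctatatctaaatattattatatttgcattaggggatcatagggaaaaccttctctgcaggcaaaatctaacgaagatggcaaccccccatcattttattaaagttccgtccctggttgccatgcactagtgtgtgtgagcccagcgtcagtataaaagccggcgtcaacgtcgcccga
Hsp26: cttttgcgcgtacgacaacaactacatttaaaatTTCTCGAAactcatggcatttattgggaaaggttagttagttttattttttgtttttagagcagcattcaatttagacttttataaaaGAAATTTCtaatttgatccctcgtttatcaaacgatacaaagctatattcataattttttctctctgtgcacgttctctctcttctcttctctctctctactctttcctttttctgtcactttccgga
Hsp68: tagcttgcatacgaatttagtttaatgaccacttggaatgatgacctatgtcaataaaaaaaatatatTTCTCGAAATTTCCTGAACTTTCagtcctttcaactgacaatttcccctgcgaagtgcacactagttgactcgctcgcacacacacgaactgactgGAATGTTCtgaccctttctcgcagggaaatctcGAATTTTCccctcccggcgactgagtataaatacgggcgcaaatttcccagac
Hsp23: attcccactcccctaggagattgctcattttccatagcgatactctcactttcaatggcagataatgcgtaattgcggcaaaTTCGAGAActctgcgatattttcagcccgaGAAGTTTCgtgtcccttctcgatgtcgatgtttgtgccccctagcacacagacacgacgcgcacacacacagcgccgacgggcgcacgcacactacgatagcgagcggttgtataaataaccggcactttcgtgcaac

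Hsp27, which encodes a small heat shock protein of the nucleus, had the strongest peak of the list. Its signal, the authors' value in their own unit, was 202 in replicate 1, 263 in replicate 2 and 462 in the pooled reads. The peak at chr3L:9383726-9384066 was 341 bp wide, and its summit lay in intergenic sequence 158 bp upstream of the only annotated TSS. It ranked 94 of the 3995 thresholded peaks, and 99 and 89 in the lists of replicates 1 and 2. Of all thresholded peaks, 97.6% had a lower signal. Both replicates placed the summit within 3 bp of the pooled one. The same summit falls within 2 kb of the 3′ end of Hsp23 and lies 2023 bp from the Hsp23 TSS.

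Hsp26, a cytosolic small heat shock protein gene, had a signal of 64.2 in replicate 1, 83.2 in replicate 2 and 145 in the pooled reads (chr3L:9377391-9377820, rank 1028). The replicates' summits lay 6 and 0 bp from the pooled summit. The summit was in intergenic sequence, 179 bp upstream of one annotated TSS and 231 bp upstream of the other. It also falls in the window of Hsp67Ba, 1928 bp downstream of the TSS of that gene.

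Hsp22, which encodes a mitochondrial small heat shock protein, had a signal of 44.7 in replicate 1, 68.1 in replicate 2 and 113 in the pooled reads (chr3L:9373316-9373745, rank 1584). The gene has 2 annotated TSSs. The summit lay 466 bp upstream of the downstream TSS and 600 bp inside the transcript that starts at the upstream TSS. It is annotated both as 5′ UTR of Hsp22 and as 3′ UTR of CG4456, the gene also known as Hsp67Bb, whose span overlaps that of Hsp22. The 101 bp at this summit had a G+C content of 14.9%, the lowest of the 9 summits, whose median was 27.7%, against a median of 31.7% over all thresholded peaks.

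The remaining small heat shock genes had no thresholded promoter peak. At Hsp67Bc the pooled list of 30000 regions held a region 271 bp upstream of the TSS with a signal of 16.9 and rank 24006. This region is shared, since it lay nearer, at 163 bp, to the upstream Hsp22 TSS and within the span of CG4456. Replicate 2 held it with a signal of 14.2, and replicate 1 held no promoter region there. At Hsp23, which encodes a cytosolic small heat shock protein, replicate 2 alone held promoter regions, with summits 39 bp upstream and 164 bp downstream of the TSS and signals of 14.6 and 9.73. At Hsp67Ba no list held a region within 500 bp of the TSS. With the shared region counted for Hsp67Bc, 7 of the 10 genes had any region of the pooled list at the promoter, against 50.1% of protein-coding genes.

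**Figure D1:**
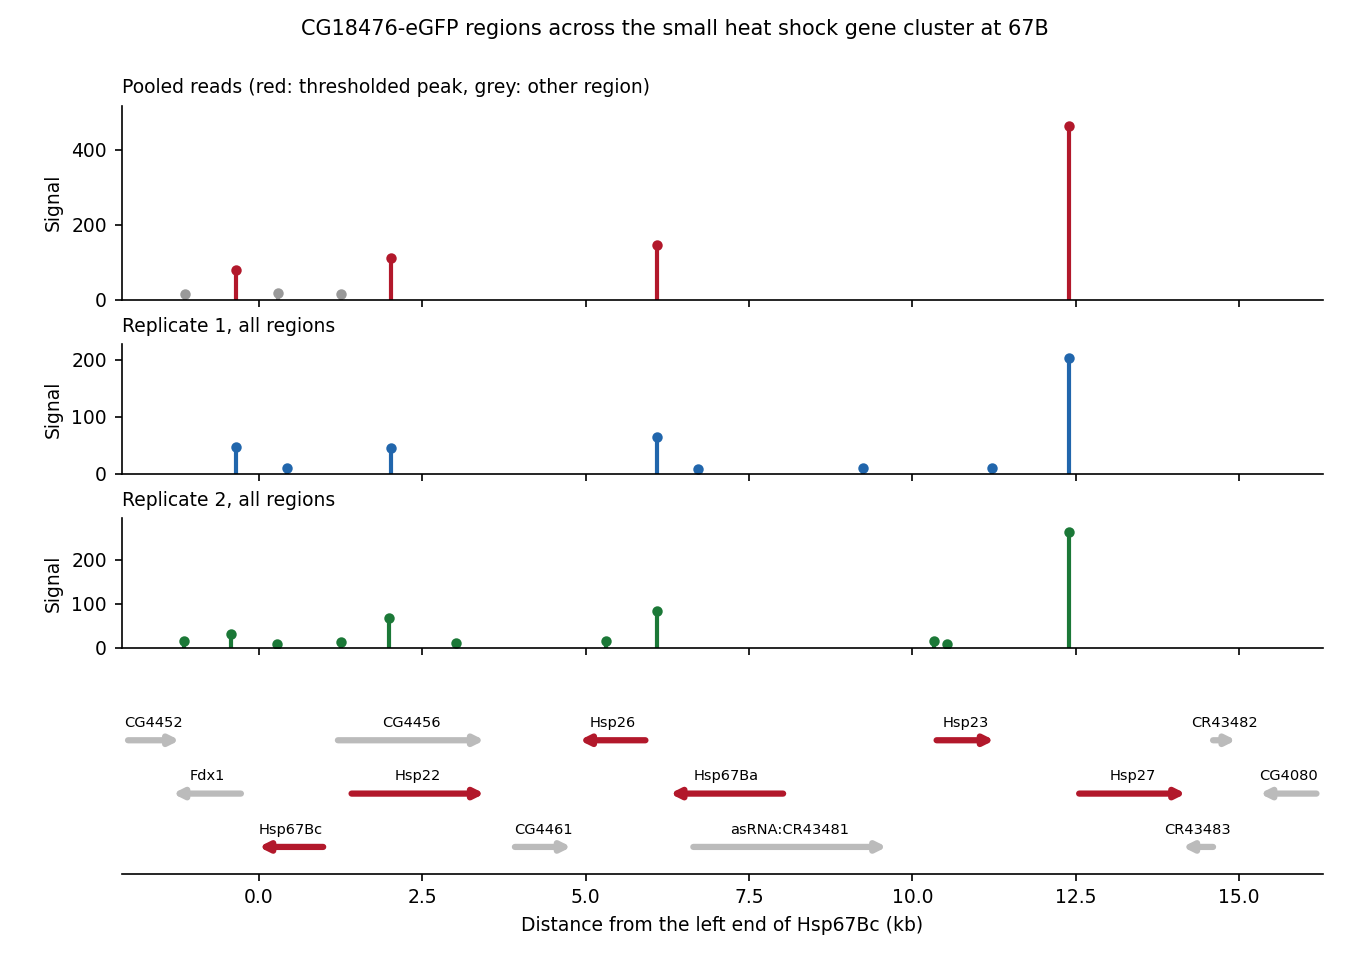
Signal of every listed region (vertical axis, authors' unit) along the small heat shock gene cluster at 67B (horizontal axis, kb from the left end of Hsp67Bc), for the pooled reads, replicate 1 and replicate 2, with annotated genes below (red for genes of the list, arrows in the direction of transcription). The summit upstream of Hsp27 carries 462 of the 799 summed over the 4 thresholded summits, and the 6299 bp between it and the Hsp26 summit hold no pooled region.

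As 1 locus, the cluster spans chr3L:9371511-9385694, and with 2 kb on each side the window is 18184 bp. It held 4 thresholded summits, of which 3 lay between the outer ends of the heat shock genes. Of 7360 non-overlapping windows of that length over the genome, 32.0% held at least 1 thresholded summit and 2.07% held 4 or more, with a median of 0 and a maximum of 11. The window was placed on the genes and the others on a fixed grid. The pooled list held 7 regions in it, replicate 1 held 8 and replicate 2 held 11. The Hsp27 summit made up 57.9% of the summed thresholded signal.

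The fourth summit of the locus, at the end beyond Hsp67Bc, lay in an intron of Fdx1, which encodes a ferredoxin, 68 bp downstream of the Fdx1 TSS (chr3L:9370955-9371384). Its signal was 47.8 in replicate 1, 31.3 in replicate 2 and 78.5 in the pooled reads, rank 2794. It lay 1327 bp downstream of the Hsp67Bc TSS. The summits were 2361, 4075 and 6299 bp apart along the cluster, and the widest of these gaps contains Hsp67Ba, the antisense RNA gene asRNA:CR43481 and Hsp23. The other annotated genes of the window are CG4452, CG4461, a further small heat shock protein gene, CG4080 and the pseudogenes CR43483 and CR43482.

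Hsp83 encodes the cytosolic Hsp90, which is abundant in unheated cells and further induced by heat. It carried both of its thresholded peaks inside the transcribed region, and both were narrow in the pooled list. The first, 188 bp wide (chr3L:3193018-3193205), had a signal of 75.1 in replicate 1, 109 in replicate 2 and 179 in the pooled reads, rank 685. Its summit lay between the 2 annotated TSSs, 122 bp downstream of one and 125 bp upstream of the other, in 5′ UTR sequence of the longer transcript. A paired heat shock element, GAANNTTC, lay 57 bp from that summit. The second peak, 215 bp wide (chr3L:3194133-3194347), was in the intron, 1023 bp downstream of the second TSS, with 72.7 in replicate 1, 125 in replicate 2 and 196 in the pooled reads, rank 577. The intronic signal was the lower of the 2 peaks in replicate 1 and the higher in replicate 2, so their order did not hold across replicates. Of all thresholded peaks, 10.7% were at most 215 bp wide. The narrow width did not hold across replicates. The regions paired with the first peak were 430 bp wide in replicate 1 and 410 bp in replicate 2. Those paired with the second were 430 bp wide in replicate 1 and 166 bp in replicate 2.

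The 101 bases at the intronic Hsp83 summit (chr3L:3194189-3194289, plus strand) are shown because their G+C content, 20.8%, stands beside 47.5% at the other Hsp83 summit. The sequence is from the same RefSeq assembly, 5′ to 3′, and holds no paired heat shock element unit and so no capitals.
Hsp83 intron: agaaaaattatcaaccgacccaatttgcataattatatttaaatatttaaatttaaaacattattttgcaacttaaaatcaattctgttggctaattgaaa

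Hsp68, a heat-inducible member of the Hsp70 family, was the gene without a thresholded summit. The pooled list held a region at chr3R:24058039-24058468 with a signal of 55.9, rank 4427, against 60.6 for the weakest thresholded peak. Replicate 1 had 24.3 and replicate 2 had 27.9 there. The summit lay 944 bp upstream of the Hsp68 TSS and 33 bp upstream of the TSS of SMC1, a cohesin subunit gene transcribed in the other direction. No list held a region within 500 bp of the Hsp68 TSS.

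Hsc70-4 encodes the major cytosolic Hsp70 cognate. Its peak (chr3R:15242214-15242643) had a signal of 41.5 in replicate 1, 40.6 in replicate 2 and 81.4 in the pooled reads, rank 2652. The intergenic summit lay 258 bp upstream of the first of 6 annotated TSSs, and nearer, at 193 bp, to the TSS of tefu, which encodes the ATM kinase of the DNA damage response and is transcribed in the other direction. Replicate 1 placed the summit 0 bp from the pooled one, and replicate 2 placed it 111 bp away. In replicate 2 the paired summit lay 147 bp upstream of that Hsc70-4 TSS and nearer to it than to tefu. By this pairing the nearer gene differed between replicates. A second pooled region, 58 bp upstream of the same Hsc70-4 TSS, had a signal of 36.9, rank 7687, and was not in the thresholded set. The paired replicate 2 summit lay nearer to the summit of this second region than to the thresholded one. Replicate 2 held a further region 58 bp downstream of that TSS, with a signal of 19.4. The summit sequence (chr3R:15242379-15242479, plus strand, RefSeq assembly of dm6, 5′ to 3′) is shown as the shared start region of both genes, and it too holds no paired unit to capitalise.
Hsc70-4: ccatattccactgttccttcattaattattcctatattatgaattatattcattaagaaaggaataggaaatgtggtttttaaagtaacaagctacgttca

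**Figure D2:**
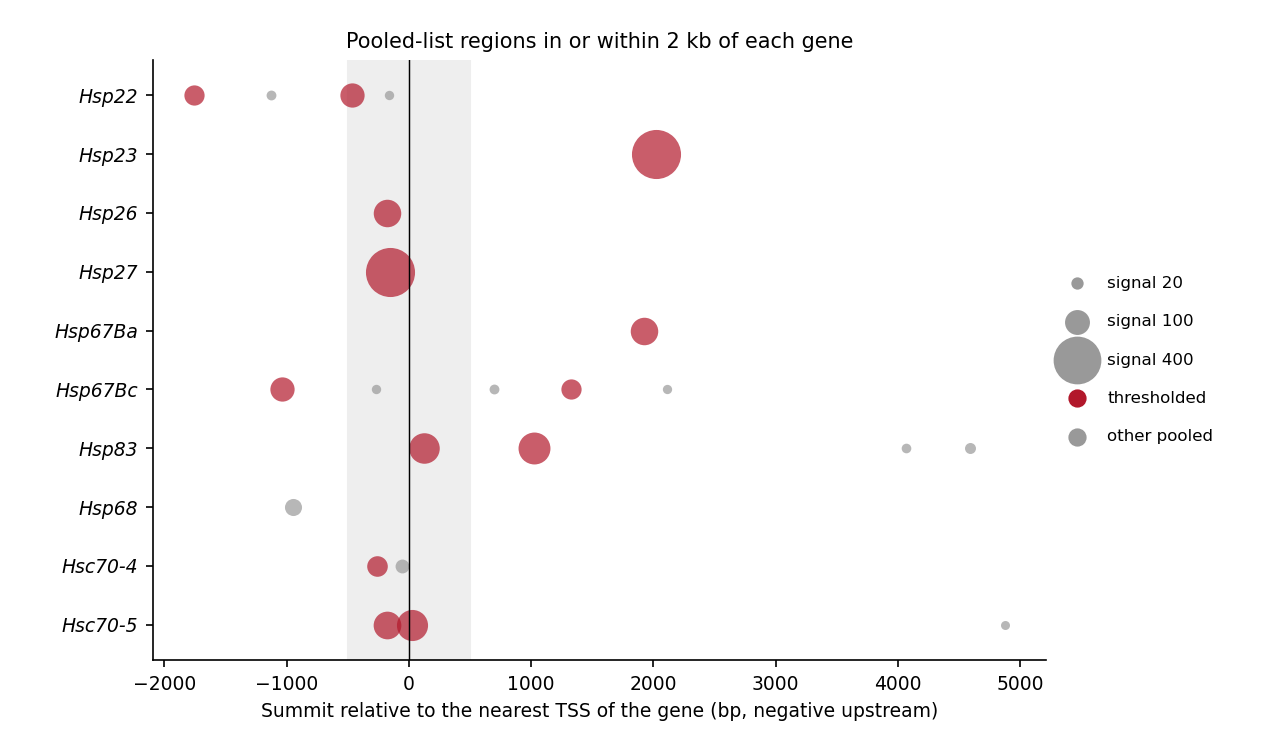
Summits of the pooled list in or within 2 kb of each heat shock gene, by distance in bp from the nearest TSS of that gene (negative upstream, grey band within 500 bp). Circle area follows the signal, red marks the thresholded set, and a summit in the windows of 2 genes appears in both rows, as the Hsp27 summit does for Hsp23. Hsp68 alone shows no red circle.

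The summits did not all lie nearest to a heat shock gene. Of the 9, by the pooled summit, the nearest TSS belonged to a gene of the list for 6 and to a neighbour, Fdx1, tefu or CG8531, for the remaining 3. The case of tefu did not hold in replicate 2, whose paired summit lay nearer to Hsc70-4. Intergenic sequence held 4 of the summits, and 5 lay upstream of their nearest TSS.

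Hsc70-5, on 2R, encodes the mitochondrial Hsp70. It had 2 overlapping thresholded peaks, with summits 200 bp apart. The first had its summit in the 5′ UTR, 22 bp downstream of one TSS and 109 bp upstream of the other, with 72.1 in replicate 1, 118 in replicate 2 and 186 in the pooled reads, rank 637. The second summit was intergenic, 178 bp upstream of the gene and 123 bp upstream of CG8531, a gene transcribed in the other direction. Its signal was 48.6 in replicate 1, 27.7 in replicate 2 and 147 in the pooled reads, rank 1000. The pooled signal of this second peak was 1.93 times the sum of the replicates, whereas in the other 8 peaks the pooled value was 0.973 to 1.00 times that sum. Each replicate value is that of the overlapping region with the nearest summit. The replicate 2 region of 118, given above for the first peak, also overlaps the second, but its summit lies farther away than that of the region used. The 1.93 therefore depends on this pairing, and the reason for the difference was not tested.

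**Figure D3:**
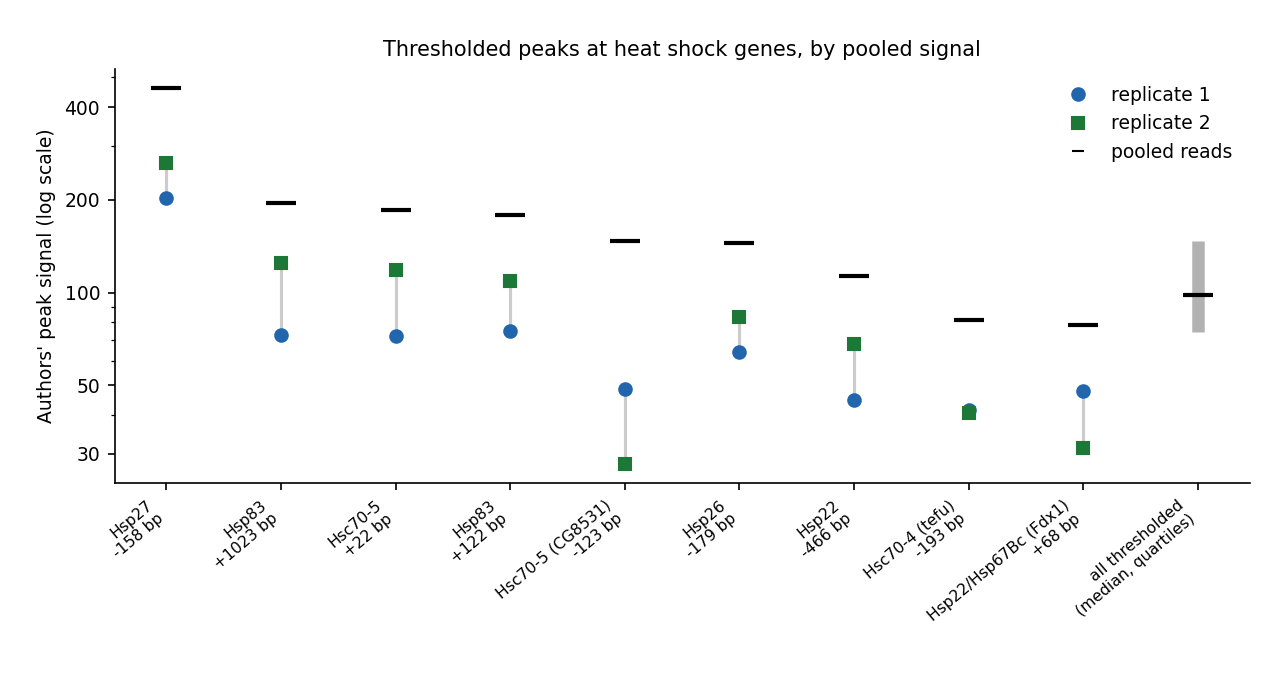
Authors' signal of the 9 thresholded peaks (log scale) in replicate 1 (circles), replicate 2 (squares) and the pooled reads (bars), ordered by pooled signal and named by the nearest TSS, with the median and quartiles of the pooled signal over all 3995 thresholded peaks at the right. Each replicate value is that of the overlapping region with the nearest summit. By this pairing, replicate 2 was higher in 6 of the 9, and the peak near CG8531 has a pooled value far above both replicates.

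The median pooled signal of the 9 peaks was 147, against 98.2 over all thresholded peaks, whose quartiles were 74.5 and 147. At the 6 genes with a promoter peak the strongest promoter signal had a median of 162, against 108 over the 2468 genes with one. Among those 2468 genes Hsp27 ranked 81, Hsc70-5 ranked 520, Hsp83 ranked 558, Hsp26 ranked 805, Hsp22 ranked 1153 and Hsc70-4 ranked 1797. Hsp27 was first in both replicates, and its lower replicate, 202, exceeded the higher replicate of every other heat shock peak, at most 125. Between Hsc70-5 at 22 bp and the Hsp83 pair the replicates overlapped, so their order is not separated from the spread.

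Over the 9 peaks, replicate 2 divided by replicate 1 gave a median ratio of 1.30 (range 0.570 to 1.71), against 1.24 over all thresholded peaks found in both replicates (quartiles 0.994 and 1.57). Replicate 2 was the higher in 6 of the 9, against 74.4% of 3988 peaks. The lowest ratio, 0.570, was at the second Hsc70-5 peak. There the ratio and the direction depend on which of 2 overlapping replicate 2 regions is paired with the peak. Depth is unknown from the lists, so the ratios carry any difference in depth. Replicate 2 summits lay a median of 39 bp from the pooled summits over the 9 peaks, against 16 bp over all thresholded peaks. For replicate 1 these medians were 4 and 14 bp. The widest shift in replicate 2, 111 bp, was at Hsc70-4, so the close agreement at Hsp27 and Hsp26 did not hold for every peak. By an overlap of at least 0.5 of both lengths, 8 of the 9 peaks had a matching region in both replicates. The exception, in both, was the 188 bp peak at the Hsp83 start, whose replicate regions were wider, at 430 and 410 bp. With an overlap of at least 1 bp it too was matched. The set was chosen by the authors for reproducibility, so these matches are not independent evidence.

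Heat shock element pairs were more frequent at these promoters than at promoters of all genes. The order of the genes by number of pairs, overlapping pairs included, was not their order by peak signal. Windows from 500 bp upstream to 100 bp downstream of 19 annotated TSSs of the 10 genes were searched on both strands. These windows are not independent, since 6 are of Hsc70-4. Windows overlap at Hsp26, Hsp83, Hsc70-4 and Hsc70-5 and between Hsp22 and Hsp67Bc, so a pair can count more than once. The pair GAANNTTC was in 17 of the 19 windows, against 17.4% of 19253 TSS windows of all genes. TTCNNGAA was in 10, all at Hsp23, Hsp26, Hsp68, Hsp83 and Hsc70-4, against 15.6%. A run of 3 alternating units, which contains both pairs in overlap, was in 7, against 0.867%. These 7 are the single windows of Hsp23 and Hsp68 and 5 windows of Hsc70-4. The Hsc70-4 windows fall into an upstream and a downstream set. They overlap within a set but not between sets, and the sets hold different runs.

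With overlapping pairs counted separately, Hsp68 had the most, 6. They formed 3 overlapping runs of 3 units, from 182 to 160 bp upstream, and single pairs from 86 to 79 and from 53 to 46 bp upstream. No region of any list lay there. Hsp23 had 4 pairs and a run of 3 units, with regions in replicate 2 only. Hsp26, with a peak, had 5 pairs at each TSS, and these did not overlap one another within a window. The place of Hsp68 above Hsp26 therefore depends on counting overlapping pairs. Hsp27, with the strongest peak, had 1 pair, from 338 to 331 bp upstream and 173 bp from the summit. Hsp22 had 3 pairs at its downstream TSS and 1 at the other, and Hsp67Ba had 0. Over all genes, 16.2% of the 197 TSS windows with 3 or more pairs held a thresholded summit within 500 bp, against 15.9% of windows with no pair. Of the 167 windows with a run of 3 alternating units, 19.8% held one, and of the 11 windows with 2 or more such runs, 0 did. These 11 include the Hsp68 window, and with so few a count of 0 does not separate them from the 15.8% of all windows.

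**Figure D4:**
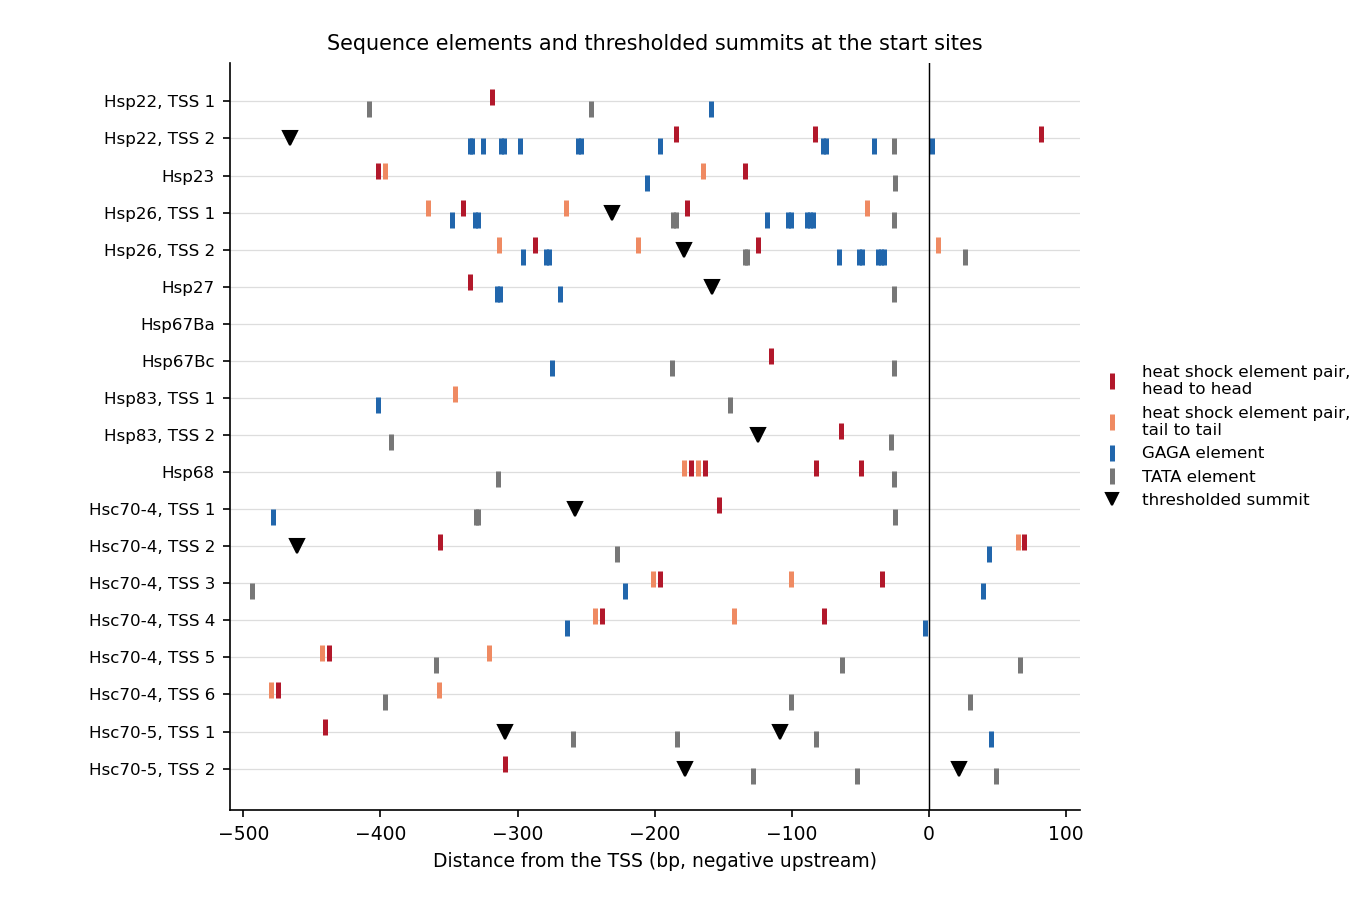
Positions of heat shock element pairs (red GAANNTTC, orange TTCNNGAA), GAGA elements (blue, GAGAG) and TATA elements (grey, TATAAA) from 500 bp upstream to 100 bp downstream of each TSS, with thresholded summits as black triangles. The triangles lie beside the elements at Hsp26 and away from them at Hsp27, and the rows of Hsp68 and Hsp23 hold elements and no triangle.

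In the 101 bp at the 9 summits themselves, GAANNTTC was in 0, against 3.03% of all thresholded summits, and TTCNNGAA was in 1, that of Hsp26, against 2.73%. In that window a pair lay 30 bp from the summit, the capitals nearest the start of the Hsp26 sequence above. In a wider view, counted after the values were seen, 6 of the 9 summits had a pair within 200 bp, against 19.9% of all thresholded summits. Since GAANNTTC was in 17 of the 19 TSS windows of these genes, summits close to those TSSs were more likely to lie near a pair. The comparison therefore does not relate the peaks to the elements. No summit window of the list held GAGAG, against 9.99% of all, although GAGAG was in 13 of the 19 TSS windows, against 50.3%. At the downstream Hsp22 TSS it matched 13 times and at Hsp26 it matched 9 times, overlapping matches included. TATAAA was in 2 of the 9, at Hsp26 and Hsc70-5, against 23.2%, and in 17 of 19 TSS windows, against 63.5%. The element TATCGATA, the site of the factor Dref, was in 0 summit windows, against 1.38%, and GGTCACACT was in 0, against 0.375%. CGATA, a core of the BEAF-32 insulator site, was in 1, that in Fdx1, against 14.2%, and a run of 8 A or 8 T was in 1, that of Hsp22, against 7.93%. With 9 summits, counts of 0 or 1 do not separate the list from these shares.

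Related chaperone genes, 50 of them found in the annotation, had a promoter peak in 11 cases, 22.0%, near the 17.7% of all protein-coding genes. The peaks were in 3 groups. Chaperonin genes, whose barrel-shaped complexes fold proteins inside a chamber, had 5 of 12 (41.7%). Hsp60A, the mitochondrial chaperonin gene, had a signal of 59.6 in replicate 1, 64.0 in replicate 2 and 120.0 in the pooled reads. The subunit genes of the cytosolic complex CCT3, CCT5, CCT7 and CCT8 had pooled signals of 102, 98.1, 76.6 and 74.5, each at a summit shared with the start of another gene.

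Genes for J-proteins and exchange factors, which drive the ATP cycle of Hsp70, had 5 of 11 (45.5%), against 17.7% of all protein-coding genes. With groups as small as these and the 12 chaperonin genes, the counts are not read as a group pattern. The J-protein gene mrj was the strongest, with 120.1 in replicate 1, 140.4 in replicate 2 and 262 in the pooled reads. The Hsp70 co-chaperone gene stv had a pooled signal of 166, and the J-protein genes DnaJ-H, P58IPK and Droj2 had 105, 91.3 and 69.4. The DnaJ-H summit is shared with the start of Sirt1, and the Droj2 summit with that of mRpS21. At Droj2 the replicates had 54.8 and 14.6, which is the widest gap between replicates in this group. The stress RNA gene lncRNA:Hsromega, a long non-coding RNA induced by heat, had 101.6 in replicate 1, 77.8 in replicate 2 and 183 in the pooled reads, 188 bp downstream of a TSS.

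None of the other groups had a thresholded promoter peak. These were the other small heat shock genes (0 of 6), the further cognates and relatives (0 of 5), the Hsp90 family genes Gp93 and Trap1 (0 of 2), the Hsp90 cochaperone genes (0 of 6) and Hsf (0 of 1). With groups this small, counts of 0 do not separate them from the 17.7% of all protein-coding genes. In the same order, 3, 4, 1, 5 and 0 of these genes had a promoter region in the pooled list, against 50.1% of protein-coding genes. The multi-copy Hsp70 genes had 0 of 6 and no promoter region in the pooled list. Their copies are near-identical, and how reads that match several copies were handled is not given in the sources used here, so this 0 is not read as absence.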

How the data were processed

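ChIP-seq with an antibody against GFP was measured in 2 biological replicates of CG18476-eGFP embryos. Per the README texts that came with the deposited lists, the authors called peaks for each replicate and for the pooled reads against a control and derived a thresholded set from those lists. Not given in the sources used here were the aligner, the caller and the threshold. Each peak's signal is the authors' deposited value, unscaled here, and the deposited −log10 q was used only to describe the lists. Depth is unknown, so no value carries a counting error. Only the dm6 lists were used.

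Genes came from Ensembl release 115 and sequence from the RefSeq assembly of dm6. Positions are 1-based. Peaks counted as promoter peaks when a TSS lay within 500 bp of the summit, and gene windows were extended by 2 kb. For its replicate signals, each thresholded peak was paired with the overlapping replicate region whose summit was nearest. Motifs were searched on both strands in 101 bp at summits and 600 bp at TSSs. The genes named are the 10 heat shock genes, their neighbours at shared summits or at 67B, and related chaperone genes with a promoter peak. Of 54 related names listed, 51 matched, 8 by synonym, giving 50 genes. The members and lists were chosen with earlier results of these data known. No test was made, since there is 1 group. Alternatives were other distances, flanks, overlaps and windows, peak midpoints, the upper 1997 peaks, and each replicate alone. The code for gene assignment was checked on simulated summits planted within 500 bp of a TSS and recovered 200 of 200 planted genes. Recovery by that same distance checks the code only, and not which gene a shared summit belongs to. The scripts ran under Python 3.11.15 with pandas 2.3.3, Matplotlib 3.10.9, SciPy 1.17.1 and NumPy 2.4.6.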

Additional observations from a re-analysis of the deposited data

How the results depend on the processing

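Over the alternatives run, 4 to 6 of the 10 heat shock genes had a promoter peak, while the share of all protein-coding genes ranged between 10.2% and 20.4%. A summit in the body or flank was present at 8 to 9, against 19.4% to 44.6% of all genes, the highest share being for the widest flank tried, where 9 had one. Thresholded summits numbered 7 to 11, with 3 to 5 at 67B. The promoter count was 6 with either replicate alone. The count of related chaperone genes was 6 of 50 with the upper 1997 peaks, where 10.2% of all genes had a promoter peak, and 6 with a promoter distance of 250 bp, where 13.9% did, against 11 and 17.7%. Peaks matched in both replicates numbered 2 at an overlap of 0.8, against 8. Windows of 25 bp to each side of the summit gave 0 for TTCNNGAA, 0 for TATAAA and 0 for CGATA, and windows of 100 bp gave 2 for GAANNTTC, 1 for GAGAG, 6 for TATAAA and 4 for CGATA. Centred on the peak midpoint, GAANNTTC was in 1. A wider or narrower window changes these counts by construction. No paired analysis was possible because there is 1 group of 2 libraries. Depth per library is unknown and limits the reading of weak regions.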
